A study of Homo sapiens with 8 samples.

Results

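The genes described here encode the matrix metalloproteases (MMP), the tissue inhibitors of metalloproteases (TIMP), the disintegrin metalloproteases (ADAM), the secreted ADAMTS proteases and the ADAMTS-like proteins (ADAMTSL). They were taken as all protein-coding rows of the count table whose symbol starts with one of these 5 prefixes directly followed by a number. This gave 72 of 60564 genes, of which 24 carried the prefix MMP, 4 TIMP, 20 ADAM, 19 ADAMTS and 5 ADAMTSL. The prefix also took in MMP24OS, the gene on the opposite strand of MMP24, which encodes no metalloprotease. RNA sequencing was carried out on AB8/13, a conditionally immortalised line of human podocytes, the epithelium on the outside of glomerular capillaries. In the ATOH8 knockdown group, 4 libraries came from cells transfected with an shRNA against ATOH8, a basic helix-loop-helix transcription factor, and 4 control libraries came from cells transfected with a non-targeting shRNA. Cells of both groups had been expanded at 33 °C and differentiated at 37 °C for 5 days, so both groups share the line, the transfection and the temperature shift. Libraries within a group are described as biological replicates, and whether these were separate cultures is not stated. The p-values therefore rest on the variation among these 8 libraries, part of which may be technical.

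Metalloproteases cut extracellular matrix and cell surface proteins with a zinc ion in the active site, and most are made as inactive precursors that are activated by removal of a prodomain. MMPs degrade collagens, laminins and other matrix proteins, either as secreted enzymes or anchored in the plasma membrane. ADAMs are membrane proteins, several of which release the outer parts of growth factors, receptors and adhesion molecules, a step called shedding. ADAMTS proteases are secreted and process procollagens, proteoglycans, von Willebrand factor and components of fibrillin microfibrils, whereas ADAMTS-like proteins share the ancillary domains and lack the protease domain. TIMPs bind the active site of these enzymes. In the glomerulus the balance of these proteins bears on the turnover of the basement membrane that podocytes make and rest on.

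Total counts were 23229160 to 25277868 in ATOH8 knockdown libraries and 21108695 to 27109043 in control libraries. ATOH8 itself averaged 2.43 ± 0.33 CPM (read counts relative to the TMM-scaled library size, in the usual CPM unit) in ATOH8 knockdown libraries and 5.83 ± 0.66 CPM in control libraries (SD, n = 4 each), so that the log2 fold change was -1.26, with an SE of 0.13 and an edgeR adjusted p = 1.78e-09. The podocyte label was checked against 10 markers: WT1 had 108, 147, 111 and 116 counts in ATOH8 knockdown libraries and 167, 135, 112 and 149 in control libraries, while NPHS1 (nephrin) had at most 6 counts in any library. Of the 10, 6 were tested, 2 were higher and 2 lower. Over all genes tested, 25.2% were higher and 25.9% lower. The 10 markers summed to 224 to 258 CPM in ATOH8 knockdown libraries and 260.3 to 273 CPM in control libraries. Most of this sum was CD2AP, which was lower, at 189 ± 13.3 CPM in ATOH8 knockdown and 227 ± 5.76 CPM in control libraries. Markers of other cells were counted in the same way, beside the same shares over all genes tested. Of 11 mesangial and pericyte markers 6 were tested, 4 were higher and 1 was lower. Their summed level was 613 to 649 CPM in ATOH8 knockdown libraries and 546 to 563 CPM in control libraries. Most of it was MCAM, which was not called, at 502 ± 8.14 CPM in ATOH8 knockdown and 513 ± 8.91 CPM in control libraries. Of 11 endothelial markers 7 were tested and 5 were higher (60.0 to 62.8 CPM in ATOH8 knockdown libraries, 39.6 to 42.8 CPM in control libraries), but PECAM1 had at most 1 count and EMCN was at 0 in every library. Of 9 leukocyte markers 4 were tested and 2 were higher (103 to 113 CPM in ATOH8 knockdown libraries, 76.7 to 86.9 CPM in control libraries), with PTPRC at no more than 2 counts and FCGR3A at 0. Nearly all of this sum was CD68, at 106 ± 3.98 CPM in ATOH8 knockdown and 79.3 ± 4.63 CPM in control libraries. The other higher marker, ITGAM, had 29, 29, 17 and 36 counts in ATOH8 knockdown libraries and 5, 4, 4 and 6 in control libraries. ITGAM passed the filter on low counts through ATOH8 knockdown libraries alone. Of 11 parietal and tubule epithelial markers 8 were tested, 3 were higher and 2 lower (1968 to 2043 CPM in ATOH8 knockdown libraries, 1742 to 1785 CPM in control libraries). The part of such cells in the values below was not tested, and in bulk RNA fewer cells of a type and less RNA per cell cannot be told apart.

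Sequence upstream of the genes is shown for members whose promoter holds a word searched for a factor family tied to these genes. AP-1 (JUN and FOS proteins) is a classical activator of MMP genes. For AP-1 the word TGANTCA was searched, a loose form of its site in which any base may stand at N. Helix-loop-helix proteins bind E-boxes, of which CAGCTG was searched. Both words read the same on either strand. RefSeq promoters (build GRCh38.p14, 250 bases before to 50 bases after the gene start) were matched by symbol for 45 of the 72 genes. The other members were not searched, so a member not named here may still hold either word. TGANTCA was present in 4 of these 45 (8.89%) and in 7.71% of all 35116 promoters, and CAGCTG in 9 of 45 (20%) and in 17.9% of all. TGANTCA was held by ADAMTS12 and MMP7, which were both lower in ATOH8 knockdown, and by MMP10 and MMP20, which had too few counts to test. MMP7 had TGAGTCA, while ADAMTS12, MMP10 and MMP20 had TGAATCA. E-box members that changed were ADAMTS14, ADAMTS18 and ADAMTS2 (higher) and ADAMTS12 and ADAM22 (lower). MMP23B, ADAMTSL2, MMP26 and MMP27 hold the other 4 E-boxes. In ADAMTS2 and MMP27 the word lies after the gene start, at bases 30 and 36, and is not upstream. A match is a description of the letters and not of binding. In the stretches below, written 5′ to 3′ on the strand of the gene, the capitals mark the word. The ADAMTS12 stretch (chr5:33892038-33892104, minus strand) has its AP-1 word starting at base -84 from the gene start and overlapping its E-box. MMP7 (chr11:102530778-102530844, minus strand) and MMP10 (chr11:102780659-102780725, minus strand) both have the word starting at base -67. ADAMTS14 (chr10:70672330-70672395, plus strand), ADAMTS18 (chr16:77435035-77435092, minus strand) and ADAM22 (chr7:87934062-87934127, plus strand) are shown with the E-box.
ADAMTS12: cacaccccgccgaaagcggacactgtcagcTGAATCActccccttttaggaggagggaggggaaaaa
MMP7: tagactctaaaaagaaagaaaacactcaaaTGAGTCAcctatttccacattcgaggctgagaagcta
MMP10: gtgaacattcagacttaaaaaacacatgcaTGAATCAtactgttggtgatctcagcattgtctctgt
ADAMTS14: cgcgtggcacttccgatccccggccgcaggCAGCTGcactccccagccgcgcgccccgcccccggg
ADAMTS18: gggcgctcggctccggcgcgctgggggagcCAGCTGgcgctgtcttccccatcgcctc
ADAM22: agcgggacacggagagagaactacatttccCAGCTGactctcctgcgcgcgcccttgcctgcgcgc

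The comparison asks which of these genes differ in level when ATOH8 is knocked down. Of the 72 members, 44 had enough counts to be tested and 28 did not. At an adjusted p under 0.05 (edgeR quasi-likelihood test, adjusted over all 16884 genes tested), ATOH8 knockdown libraries had higher levels of 19 members and lower levels of 14, and 11 were not called. The shares over all genes tested were 25.2% higher and 25.9% lower. At least 2-fold changes were found for 4 members that were higher (3.29% of all genes tested) and 1 that was lower (1.2% of all genes tested). The groups did not overlap for 28 of the 44 members, against 45.6% of all genes tested. The median log2 fold change was 0.083 over the tested members and -0.00072 over all genes tested. Among the 4 members raised at least 2-fold, 3 (ADAMTS2, ADAMTS18 and MMP17) passed the filter on low counts through ATOH8 knockdown libraries alone, so these counts describe the tested members and not the families as a whole. By family, 6 MMP genes were higher and 2 lower of 15 tested, 5 ADAM genes higher and 4 lower of 11, 6 ADAMTS genes higher and 6 lower of 12, 2 ADAMTSL genes higher and 1 lower of 4, and 1 of 2 tested TIMP genes was lower.

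**Figure D1:**
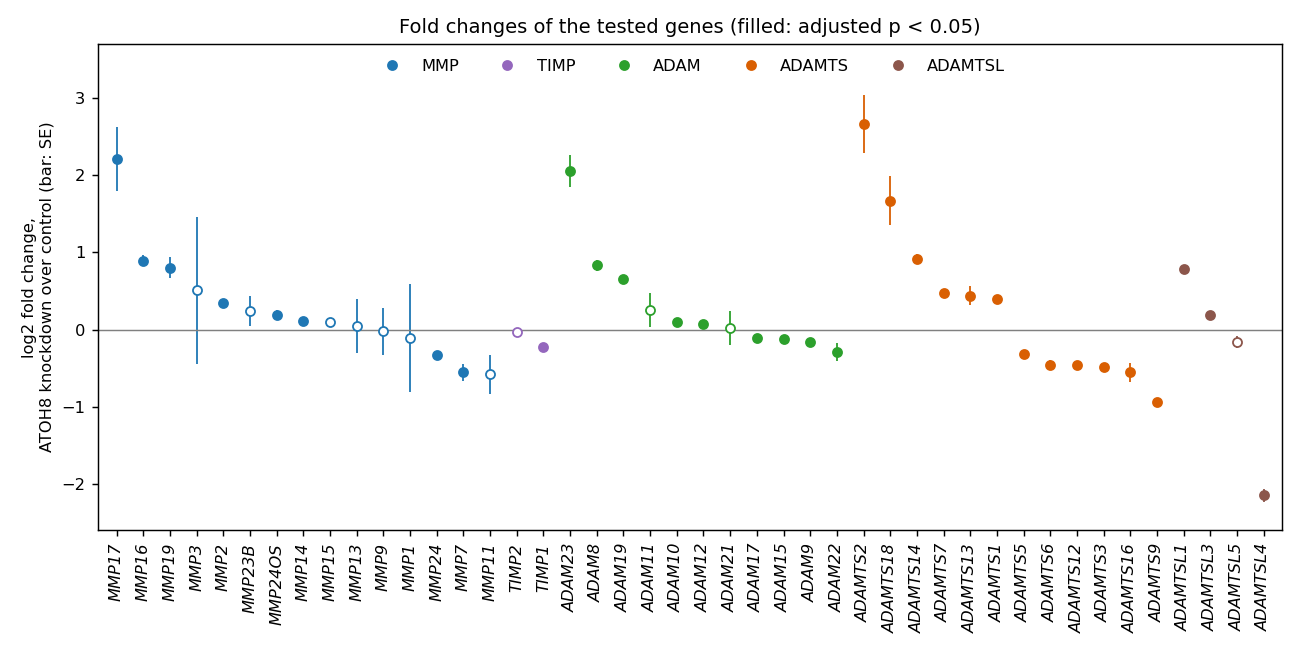
Log2 fold change of ATOH8 knockdown over control for the 44 tested members, grouped by family (colour) and sorted within it. Bars are standard errors, filled points are past the adjusted p threshold of 0.05 and open points are not. ADAMTS2, MMP17 and ADAM23 have the largest positive values and ADAMTSL4 the largest negative one, and MMP1 and MMP3 have the widest error bars.

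Levels were compared between genes only per kilobase of annotated exon. MMP14, a membrane-anchored collagenase, was the most abundant member, at 251 ± 7.11 CPM per kb in ATOH8 knockdown and 231 ± 3.76 CPM per kb in control libraries (SD, n = 4 each). Next in control libraries came the inhibitor TIMP2 (88.9 ± 2.56 CPM per kb in ATOH8 knockdown, 90.6 ± 1.14 in control), the sheddase ADAM9 (61.9 ± 2.40 and 69.2 ± 1.15), TIMP1 (50.8 ± 1.26 and 59.3 ± 2.84), ADAMTS1 (70.6 ± 2.26 and 53.6 ± 1.45) and ADAMTS5 (34.4 ± 0.985 and 42.9 ± 1.63). In ATOH8 knockdown libraries ADAMTS1 stood in place 3, against place 5 in control libraries, ahead of ADAM9 and TIMP1. The order of these 6 in control libraries was the same with the longest annotated transcript as the length. With that length, ADAMTS1 in ATOH8 knockdown libraries stood behind ADAM9 (96.1 and 112 CPM per kb) but still ahead of TIMP1 (71.5). Some neighbours further down did not differ beyond their spread, while others did, such as ADAM12 at 30.5 ± 0.917 and ADAMTS12 at 23.8 ± 1.17 CPM per kb in control libraries. Among those that did not differ, ADAMTS12 and MMP24 were at 23.8 ± 1.17 and 23.8 ± 0.880 CPM per kb in control libraries, and ADAMTS9, ADAMTSL3 and ADAM17 at 7.07 ± 0.368, 7.03 ± 0.148 and 6.97 ± 0.160. Summed over each family, the level was 1430 to 1499 CPM for MMP genes in ATOH8 knockdown libraries and 1323 to 1363 CPM in control libraries. For ADAMTS genes it was 1249 to 1276 CPM in ATOH8 knockdown and 1359 to 1402 CPM in control libraries. The ADAM sums overlapped, at 1241 to 1301 CPM in ATOH8 knockdown and 1261 to 1277 CPM in control libraries.

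**Figure D2:**
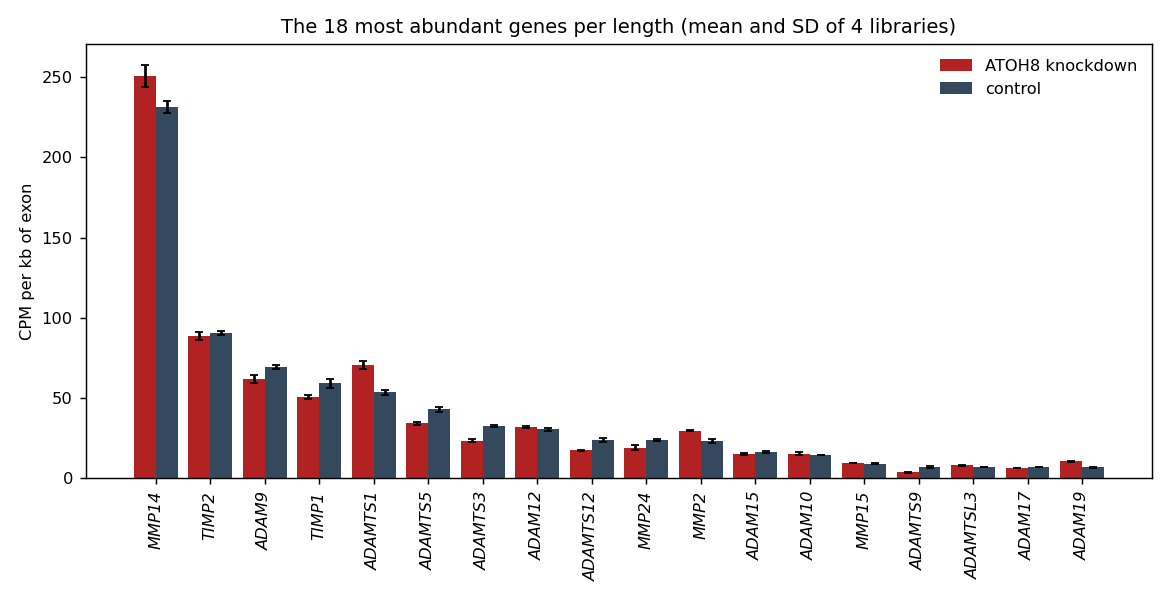
Level per length of the 18 most abundant members, in CPM per kb of exon, ordered by the control level. Bars are means and error bars SDs of the 4 libraries of a group, ATOH8 knockdown left of control. MMP14 stands far above the rest in both groups, at 251 and 231 CPM per kb, with TIMP2 next.

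Among MMPs, the membrane-anchored enzymes and the gelatinase MMP2 held nearly all of the counts. MMP14, which cuts fibrillar collagen and activates the MMP2 precursor on the cell surface, had 1163, 1094, 1097 and 1122 CPM in ATOH8 knockdown libraries and 1057, 1029, 1018 and 1027 CPM in control libraries. The groups did not overlap, and MMP14 was slightly higher (log2 0.12, SE 0.030, edgeR adjusted p = 0.00215). MMP2, which degrades type IV collagen, had 145, 146, 147 and 146 CPM in ATOH8 knockdown libraries, against 114, 111, 112 and 123 CPM in control libraries. Each ATOH8 knockdown library lay above every control library (log2 0.35, SE 0.034, edgeR adjusted p = 1.13e-09). MMP16, another membrane-type MMP, had 20.1, 23.6, 21.9 and 24.7 CPM in ATOH8 knockdown libraries and 12.8, 11.3, 11.8 and 12.8 CPM in control libraries, also without overlap (log2 0.89, SE 0.067, edgeR adjusted p = 4.11e-12). MMP24, a membrane-type MMP studied mainly in neurons, was lower, with 89.3, 81.1, 89.8 and 75.6 CPM in ATOH8 knockdown libraries and 111, 104, 103 and 102 CPM in control libraries (log2 -0.33, SE 0.048, edgeR adjusted p = 1.45e-05). MMP24OS, its neighbour on the opposite strand, was slightly higher (log2 0.19, SE 0.061, edgeR adjusted p = 0.00871), with overlapping groups. Whether reads were counted by strand is not known here, so reads of this pair cannot be told apart with certainty.

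The less abundant MMPs moved in both directions. MMP7 (matrilysin), which sheds surface proteins of epithelial cells and whose promoter is shown above, had 3.44, 3.38, 3.79 and 3.82 CPM in ATOH8 knockdown libraries and 4.72, 5.63, 5.13 and 5.67 CPM in control libraries. It was lower in all 4 ATOH8 knockdown libraries than in any control library (log2 -0.55, SE 0.11, edgeR adjusted p = 0.000129). MMP19 was higher, with 4.82, 4.71, 4.00 and 4.18 CPM in ATOH8 knockdown libraries and 3.04, 2.18, 2.61 and 2.33 CPM in control libraries (log2 0.80, SE 0.13, edgeR adjusted p = 1.04e-05). MMP17, attached to the membrane by a glycolipid, had 16, 13, 17 and 27 counts in ATOH8 knockdown libraries and 7, 7, 1 and 1 counts in control libraries (log2 2.21, SE 0.41, edgeR adjusted p = 5.94e-05). Its highest level was 1.07 CPM. MMP11 (stromelysin-3) had 0.817, 0.785, 1.12 and 0.597 CPM in ATOH8 knockdown libraries and 1.24, 1.16, 1.71 and 0.893 CPM in control libraries, and the groups overlapped (log2 -0.58, SE 0.25, edgeR adjusted p = 0.053). It passed the threshold in 4 of 13 alternative fits (edgeR adjusted p = 0.0241 to 0.0424), among them those without ATOH8 knockdown replicate 3 or control replicate 4. MMP15 (log2 0.092, SE 0.043, edgeR adjusted p = 0.0716), MMP9, the other gelatinase (-0.021, SE 0.31), the collagenase MMP13 (0.046, SE 0.35) and MMP23B (0.24, SE 0.19) were not called, with adjusted p of 0.961 for MMP9, 0.927 for MMP13 and 0.323 for MMP23B in edgeR. MMP15 passed the threshold in 2 of 13 alternative fits, without control replicate 3 (edgeR adjusted p = 0.0487) and with at least 1 CPM required in 4 libraries (edgeR adjusted p = 0.0492). Reads of MMP23B can also match its near-identical copy MMP23A, which had 0 to 8 counts.

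MMP1 and MMP3 differed between libraries of the same group more than between the groups. Both lie next to each other in the MMP cluster of chromosome 11, and encode interstitial collagenase and stromelysin-1, of which stromelysin-1 can activate the precursor of MMP1. MMP3 had 2.45, 4.95, 1.81 and 2.31 CPM in ATOH8 knockdown libraries and 0.187, 0.263, 2.04 and 5.70 CPM in control libraries. Control replicates 1 and 2 were lowest and control replicate 4 highest, 30.4-fold above control replicate 1, and the ATOH8 knockdown libraries, spanning 2.74-fold, fell within the control range. MMP1 had 2.49, 4.36, 1.51 and 2.59 CPM in ATOH8 knockdown libraries, a 2.89-fold span, and 0.937, 1.05, 3.61 and 6.40 CPM in control libraries, a 6.83-fold span. The highest library of each group was the same for both genes (replicate 2 of ATOH8 knockdown, replicate 4 of control). So was the lowest, replicate 3 of ATOH8 knockdown and replicate 1 of control. Neither gene was called (MMP3 log2 0.51, SE 0.95, edgeR adjusted p = 0.698, MMP1 log2 -0.11, SE 0.70, edgeR adjusted p = 0.916). Without control replicate 4 the MMP3 value was 1.91 and without ATOH8 knockdown replicate 2 it was 0.11, and over the 8 omissions of 1 library MMP1 ran from -0.43 to 0.62, so its sign was not stable. Their spread within groups was an SD of 1.14 for MMP3 and 0.86 for MMP1 on the log2 scale, places 18 and 27 of 12736 protein-coding genes with a mean of at least 1 CPM, whose median was 0.068. For comparison, MMP2 had an SD of 0.046. MMP7, of the same cluster, had an SD of 0.099, above that median but far below MMP1 and MMP3. MMP13, also of the cluster, had 0.430, 0.275, 0.732 and 0.478 CPM in ATOH8 knockdown libraries and 0.262, 0.375, 0.475 and 0.737 CPM in control libraries. By CPM the order of the control libraries was the same for MMP13 as for MMP1 and MMP3. Its control counts were only 7, 10, 10 and 19, so the order of control replicates 2 and 3 rests on library size. Among ATOH8 knockdown libraries replicate 2 was the lowest for MMP13 and replicate 3 the highest. What differs between these libraries was not tested.

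**Figure D3:**
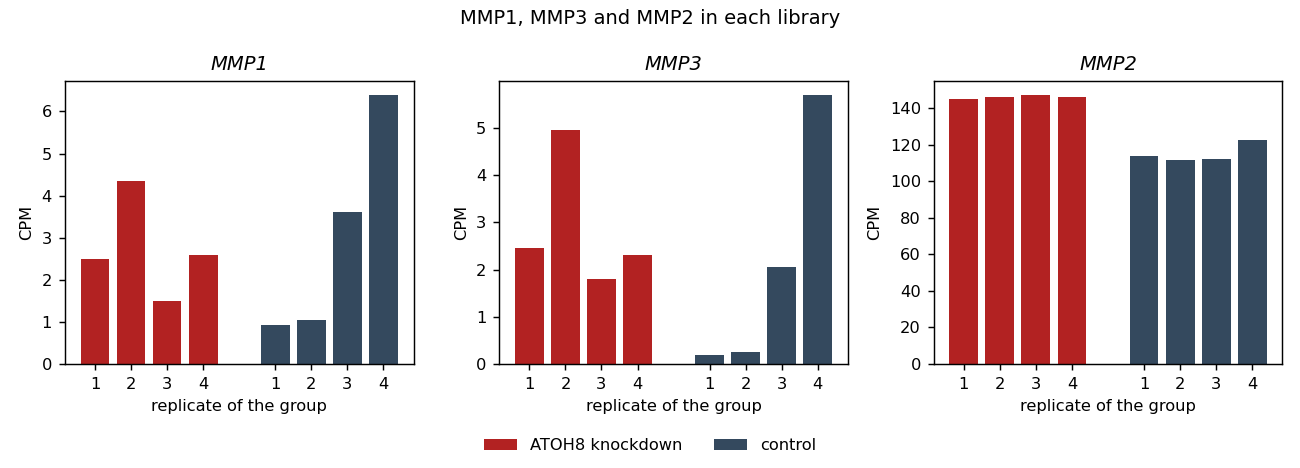
CPM of MMP1, MMP3 and MMP2 in each library, one bar per library, with ATOH8 knockdown (red) left of control (dark). MMP1 and MMP3 share the highest and lowest library in both groups, with control values between 0.94 and 6.40 CPM for MMP1 and 0.19 and 5.70 CPM for MMP3, while MMP2 is even within each group and higher in ATOH8 knockdown.

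The TIMP genes were carried by TIMP1 and TIMP2. TIMP1 (ENSG00000102265.12, X chromosome), an inhibitor of most soluble MMPs, had 80.0, 76.0, 79.9 and 77.5 CPM in ATOH8 knockdown libraries and 96.9, 86.2, 90.7 and 91.6 CPM in control libraries. All 4 ATOH8 knockdown libraries were below the lowest control library (log2 -0.22, SE 0.038, edgeR adjusted p = 1.18e-05). TIMP2, which inhibits MMPs and also bridges MMP14 to the MMP2 precursor, had 497, 511, 513 and 482 CPM in ATOH8 knockdown libraries and 505, 519, 511 and 506 CPM in control libraries. These ranges overlapped and it was not called (log2 -0.027, SE 0.030, edgeR adjusted p = 0.477). TIMP3, the inhibitor bound to the matrix and the main one of ADAM and ADAMTS proteases, had 1, 0, 1 and 0 counts in ATOH8 knockdown libraries and 0, 0, 1 and 0 counts in control libraries. TIMP4 had 5, 3, 8 and 12 counts in ATOH8 knockdown libraries and 7, 2, 9 and 11 counts in control libraries, and neither was tested.

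The widely expressed ADAM sheddases changed little. ADAM10, the main sheddase of Notch and cadherins, had 241, 259.8, 234 and 262 CPM in ATOH8 knockdown libraries and 230.1, 235, 235 and 236 CPM in control libraries. Its rise was small (log2 0.092, SE 0.035, edgeR adjusted p = 0.0266), and the groups overlapped. ADAM17, which releases TNF and ligands of the EGF receptor, was lower without overlap, with 67.7, 71.1, 68.9 and 69.5 CPM in ATOH8 knockdown libraries and 75.0, 76.8, 75.2 and 72.6 CPM in control libraries (log2 -0.11, SE 0.035, edgeR adjusted p = 0.00949). ADAM9 fell to 428 ± 16.6 CPM in ATOH8 knockdown libraries, against 478 ± 7.95 CPM in control libraries (log2 -0.16, SE 0.032, edgeR adjusted p = 9.46e-05), and ADAM15 to 99.1 ± 5.46 CPM, against 108 ± 2.85 CPM (log2 -0.12, SE 0.038, edgeR adjusted p = 0.00654), with overlap for ADAM15. ADAM12, which binds and cleaves insulin-like growth factor binding proteins, averaged 316 ± 5.35 CPM in ATOH8 knockdown and 300.3 ± 9.05 CPM in control libraries (log2 0.075, SE 0.031, edgeR adjusted p = 0.0437). The calls of ADAM10 and ADAM12 depended on single libraries and were lost in 5 and 7 of the 13 alternative fits (edgeR adjusted p = 0.0556 to 0.124 for ADAM10 and 0.0501 to 0.168 for ADAM12). ADAM10 lost its call without ATOH8 knockdown replicates 2 or 4 or control replicates 1, 2 or 3, and ADAM12 without ATOH8 knockdown replicates 1, 2 or 3 or control replicates 2, 3 or 4.

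Larger changes were found in ADAM8, ADAM19 and ADAM23. ADAM19, a protease that processes neuregulin, had 83.4, 78.5, 81.9 and 84.1 CPM in ATOH8 knockdown libraries, against 54.1, 50.8, 51.5 and 52.4 CPM in control libraries. ADAM8, best known from leukocytes, had 16.9, 15.9, 16.2 and 15.9 CPM in ATOH8 knockdown libraries and 9.26, 9.23, 9.65 and 8.30 CPM in control libraries. For both genes every ATOH8 knockdown library exceeded every control library (ADAM19 log2 0.65, SE 0.037, edgeR adjusted p = 1.26e-14, ADAM8 log2 0.83, SE 0.068, edgeR adjusted p = 2.90e-11). ADAM11, ADAM22 and ADAM23 lack protease activity and act as adhesion proteins and receptors for secreted LGI proteins in neurons. ADAM23 had 58, 55, 59 and 67 counts in ATOH8 knockdown libraries and 16, 14, 11 and 18 counts in control libraries, with no overlap (log2 2.06, SE 0.21, edgeR adjusted p = 1.94e-09). ADAM22, whose upstream E-box is shown above, went the other way, with 4.77, 5.50, 5.77 and 3.74 CPM in ATOH8 knockdown libraries and 6.37, 5.52, 5.42 and 6.79 CPM in control libraries. Its groups overlapped (log2 -0.29, SE 0.12, edgeR adjusted p = 0.044), and the call was lost in 6 of 13 alternative fits, among them those without ATOH8 knockdown replicates 1 or 4 or control replicates 1 or 4. Without ATOH8 knockdown replicate 4 its log2 value was -0.18. ADAM11 (log2 0.26, SE 0.22, edgeR adjusted p = 0.352) and ADAM21 (log2 0.023, SE 0.22, edgeR adjusted p = 0.94) were not called, at about 1 CPM each.

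**Figure D4:**
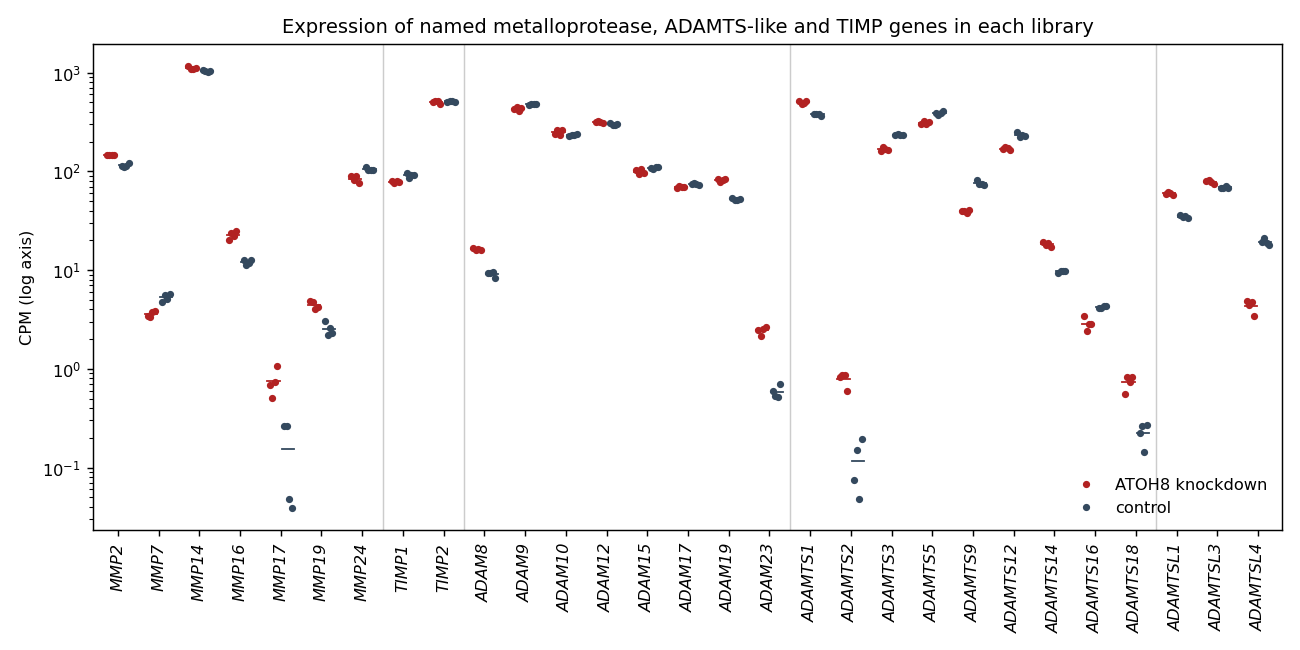
CPM of the tested members that are past the threshold with a log2 change of at least 0.5 in either direction or average at least 50 CPM, with TIMP1 and TIMP2, one point per library and a line at the group mean, on a log axis, ATOH8 knockdown (red) left of control (dark). Grey lines separate MMP, TIMP, ADAM, ADAMTS and ADAMTSL genes. The groups are apart for most genes and the points of a group lie close together, except for genes under 1 CPM such as MMP17 and ADAMTS2.

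All 12 tested ADAMTS genes, of 19, were called, 6 in each direction, where 25.2% of all genes tested were higher and 25.9% lower. Of those that were higher, ADAMTS2 and ADAMTS18 passed the filter on low counts through ATOH8 knockdown libraries alone. The 3 proteases that remove the amino-terminal propeptide of fibrillar procollagens did not move together. ADAMTS3, which also processes the lymphatic growth factor VEGFC, had 159.6, 177, 169 and 165 CPM in ATOH8 knockdown libraries, against 232, 240.5, 232 and 234 CPM in control libraries (log2 -0.49, SE 0.033, edgeR adjusted p = 5.25e-13). ADAMTS14 had 19.3, 17.9, 18.6 and 17.2 CPM in ATOH8 knockdown libraries and 9.41, 9.72, 9.89 and 9.82 CPM in control libraries (log2 0.91, SE 0.065, edgeR adjusted p = 1.32e-12). ADAMTS2, mutated in the dermatosparactic form of Ehlers-Danlos syndrome, had 19, 22, 20 and 15 counts in ATOH8 knockdown libraries and 2, 4, 1 and 5 counts in control libraries (log2 2.66, SE 0.38, edgeR adjusted p = 8.49e-07). None of the 3 had overlapping groups. Their summed level was 187 ± 7.04 CPM in ATOH8 knockdown and 245 ± 4.02 CPM in control libraries, since ADAMTS3 held most of it.

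The proteoglycan-cleaving ADAMTS proteases, which cut versican and aggrecan, were also split. ADAMTS1 and ADAMTS5 are neighbouring genes on chromosome 21. ADAMTS1 had 515, 483, 488 and 509.7 CPM in ATOH8 knockdown libraries and 383, 383, 385 and 363 CPM in control libraries, higher without overlap (log2 0.40, SE 0.032, edgeR adjusted p = 1.29e-11). ADAMTS5 had 304, 322, 304 and 316 CPM in ATOH8 knockdown libraries and 386, 370.4, 392 and 406 CPM in control libraries, lower without overlap (log2 -0.32, SE 0.033, edgeR adjusted p = 2.31e-09). ADAMTS9 had 39.4, 39.3, 38.1 and 40.8 CPM in ATOH8 knockdown libraries and 81.2, 74.1, 74.6 and 72.2 CPM in control libraries. That is 0.521 of the control level and the largest fall among ADAMTS genes tested (log2 -0.94, SE 0.042, edgeR adjusted p = 4.68e-17). The sum over the 7 genes of this class was 831 to 867 CPM in ATOH8 knockdown libraries and 828 to 852 CPM in control libraries, so the sums overlapped although each tested member changed. ADAMTS4, ADAMTS8, ADAMTS15 and ADAMTS20 had too few counts to test.

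The remaining ADAMTS genes followed no common direction. ADAMTS7 and ADAMTS12 both cleave cartilage oligomeric matrix protein. ADAMTS7 averaged 33.3 ± 1.84 CPM in ATOH8 knockdown and 24.1 ± 1.59 CPM in control libraries (log2 0.47, SE 0.054, edgeR adjusted p = 1.91e-08), and its reads can match the copies ADAMTS7P1, ADAMTS7P3 and ADAMTS7P4, which had 0 to 15 counts each. ADAMTS12, with both searched words in its promoter, had 167, 176, 171 and 164 CPM in ATOH8 knockdown libraries and 249, 222, 232 and 229 CPM in control libraries. It was lower in all 4 (log2 -0.46, SE 0.035, edgeR adjusted p = 7.93e-12). ADAMTS6 was lower (log2 -0.46, SE 0.059, edgeR adjusted p = 1.67e-07), as was ADAMTS16, at 2.87 ± 0.396 CPM in ATOH8 knockdown and 4.22 ± 0.0881 CPM in control libraries (log2 -0.55, SE 0.13, edgeR adjusted p = 0.000554). ADAMTS13, the protease of von Willebrand factor, was higher (log2 0.44, SE 0.12, edgeR adjusted p = 0.00362). ADAMTS18 had 13, 21, 17 and 21 counts in ATOH8 knockdown libraries and 6, 7, 3 and 7 counts in control libraries (log2 1.67, SE 0.32, edgeR adjusted p = 7.36e-05). For each of these genes the groups did not overlap.

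The largest fall of all members was that of ADAMTSL4 (ENSG00000143382.14, chromosome 1), which binds fibrillin-1 and is mutated in inherited displacement of the lens. It had 113, 113, 111 and 86 counts in ATOH8 knockdown libraries and 509, 569, 400 and 463 counts in control libraries, or 4.37 ± 0.660 and 19.4 ± 1.43 CPM. The level in ATOH8 knockdown was 0.225 of that in control (log2 -2.15, SE 0.089, edgeR adjusted p = 1.06e-17), and over all 13 alternative fits the log2 value stayed between -2.20 and -2.05. The antisense rows ADAMTSL4-AS1 and ADAMTSL4-AS2 had at most 7 counts in any library. ADAMTSL1, a secreted matrix protein, moved the other way, with 59.5, 61.6, 60.6 and 56.9 CPM in ATOH8 knockdown libraries and 35.7, 34.1, 34.9 and 33.8 CPM in control libraries (log2 0.78, SE 0.041, edgeR adjusted p = 1.98e-15). ADAMTSL3 had 80.6, 80.8, 77.6 and 74.1 CPM in ATOH8 knockdown libraries and 68.1, 67.2, 70.6 and 68.3 CPM in control libraries (log2 0.19, SE 0.037, edgeR adjusted p = 7.51e-05). ADAMTSL5 was not called (log2 -0.16, SE 0.081, edgeR adjusted p = 0.0988), though it was without ATOH8 knockdown replicate 1 (log2 -0.24, edgeR adjusted p = 0.0149).

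The 28 members that were not tested had at most 15 counts in any ATOH8 knockdown library and at most 19 in any control library. ADAM2, ADAM7, ADAM30, ADAMTS17, MMP12 and MMP26 were at 0 in all 8 libraries, which is a limit of detection and not a sign of absence. ADAM18, ADAM20, ADAM28, ADAM29, ADAM32, ADAMTS4, ADAMTS8, ADAMTS10, ADAMTS15, ADAMTS19, ADAMTS20, MMP10, MMP20, MMP21, MMP25, MMP27, MMP28, TIMP3 and TIMP4 showed no difference past the threshold in a fit without a filter on low counts (edgeR adjusted p = 0.117 to 0.995). The other 3 did, all on few counts. ADAM33, linked to airway remodelling, had 5, 2, 11 and 4 counts in ATOH8 knockdown libraries and 0, 2, 0 and 0 in control libraries (edgeR adjusted p = 0.00139 without the filter). MMP8, the neutrophil collagenase, had 3, 3, 5 and 11 counts in ATOH8 knockdown libraries and 1, 0, 2 and 0 in control libraries (edgeR adjusted p = 0.00495). ADAMTSL2, mutated in geleophysic dysplasia, had 8, 1, 2 and 4 counts in ATOH8 knockdown libraries and 0, 1, 0 and 0 in control libraries (edgeR adjusted p = 0.00818).

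Genes that activate or restrain these proteases were read in the same fit, as gene lists. Over all genes tested, 25.2% were higher and 25.9% lower. Of 14 protease activators and convertases 8 were tested, 5 were higher and none lower (median log2 0.20). The plasminogen activator PLAT rose to 66.2 ± 2.59 CPM in ATOH8 knockdown, against 44.2 ± 3.02 CPM in control libraries (log2 0.58, SE 0.045). The surface protease TMPRSS2 (log2 0.52, SE 0.058), FURIN, the convertase of membrane-type MMP and ADAM precursors (log2 0.24, SE 0.040), and PLAUR, the urokinase receptor (log2 0.16, SE 0.036), were also higher. Of 12 genes listed as other protease inhibitors 10 were tested, 4 were higher and 1 lower (median log2 0.12). The list also holds PCOLCE, an enhancer of procollagen C-proteinase and not an inhibitor, which was not called. SPOCK1, a proteoglycan of the testican family, rose to 221 ± 4.23 CPM in ATOH8 knockdown, against 103 ± 1.61 CPM in control libraries (log2 1.10, SE 0.032). The cystatin CST3 (log2 0.25, SE 0.034) and the testican SPOCK2 (log2 1.14, SE 0.26) were higher too. TFPI2, a Kunitz inhibitor in the matrix, was lower (log2 -0.36, SE 0.061), and RECK, a membrane-anchored inhibitor of MMPs, averaged 22.4 ± 1.21 CPM in ATOH8 knockdown and 22.5 ± 0.766 CPM in control libraries (log2 -0.00059, SE 0.054, edgeR adjusted p = 0.994). All 12 partners of the ADAM sheddases were tested, of which 7 were higher and 1 lower. TSPAN5, a tetraspanin that guides ADAM10 (log2 0.40, SE 0.040), TSPAN10 (log2 0.64, SE 0.12), the scaffold protein MAGI1 (log2 0.48, SE 0.052) and RHBDF1, an iRhom that carries ADAM17 to the surface (log2 0.18, SE 0.044), were higher, and TSPAN17 was lower (log2 -0.22, SE 0.040).

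Substrates of the proteases showed a different split for shed surface proteins and for matrix proteins, and no test compared the lists. Of 38 shedding substrates 36 were tested, 14 were higher and 13 lower (median log2 -0.044). Among the 14, TNFRSF1B passed the filter on low counts through ATOH8 knockdown libraries alone. VCAM1, a leukocyte adhesion molecule, fell to 22.5 ± 0.867 CPM in ATOH8 knockdown, against 60.6 ± 3.15 CPM in control libraries (log2 -1.43, SE 0.048). The EGF receptor ligand BTC was lower (log2 -1.33, SE 0.10) and the ligand AREG higher (log2 1.23, SE 0.11), as were AXL (log2 0.43, SE 0.031) and EFNB1 (log2 0.50, SE 0.039), while TNF was lower (log2 -0.80, SE 0.076). NOTCH3 was higher (log2 1.37, SE 0.13) and the membrane-bound chemokine CXCL16 lower (log2 -0.52, SE 0.057). Of 28 matrix substrates 23 were tested, 20 were higher and 2 lower (median log2 0.32). Among the 20, NCAN and TNXB passed the filter on low counts through ATOH8 knockdown libraries alone, so the count describes the tested genes only. COL1A1, a chain of type I procollagen and a substrate of ADAMTS2, ADAMTS3 and ADAMTS14, rose to 380.4 ± 31.2 CPM in ATOH8 knockdown, against 119.6 ± 1.92 CPM in control libraries (log2 1.67, SE 0.049). LTBP1 (log2 0.87, SE 0.051), fibrillin-2 (FBN2, log2 0.32, SE 0.033) and the laminin chain LAMA5 (log2 1.29, SE 0.071) were higher, and the proteoglycan LUM was lower (log2 -1.25, SE 0.043). The proteoglycan VCAN, the substrate of ADAMTS1, ADAMTS5 and ADAMTS9, was slightly lower (log2 -0.092, SE 0.037, edgeR adjusted p = 0.0399). With at least 1 CPM required in 4 libraries, 1 matrix substrate was lower instead of 2. All 26 listed regulators of MMP genes were tested, of which 12 were higher and 4 lower. Of the AP-1 genes, JUN rose to 234 ± 5.49 CPM in ATOH8 knockdown, against 179.8 ± 6.68 CPM in control libraries (log2 0.38, SE 0.033), and FOSL2 was higher (log2 0.23, SE 0.029). FOSL1 fell to 144 ± 3.89 CPM in ATOH8 knockdown, against 179.7 ± 9.11 CPM in control libraries (log2 -0.32, SE 0.036), FOSB was lower (log2 -0.60, SE 0.15), and the NF-kB genes NFKB1 (log2 -0.31, SE 0.034) and NFKB2 (log2 -0.22, SE 0.039) were lower. The transcription factors SNAI1 (log2 0.83, SE 0.18) and ETV4 (log2 0.24, SE 0.054) were higher. All genes named here from the lists passed the same threshold, RECK excepted.

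**Figure D5:**
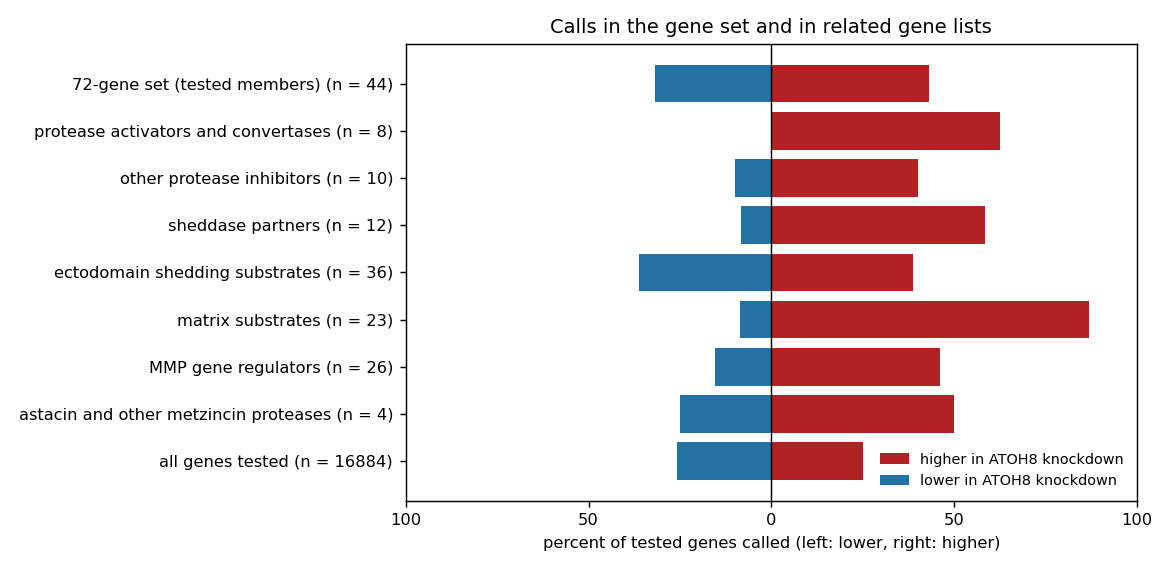
Share of tested genes called higher (right, red) and lower (left, blue) in ATOH8 knockdown, in percent, for the 44 tested members, 7 related gene lists and all 16884 genes tested (25.2% higher and 25.9% lower). The number of tested genes stands beside each name. The matrix substrates have the largest share called higher, 20 of 23, with NCAN and TNXB among them past the filter through ATOH8 knockdown libraries alone.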

How the data were processed

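The deposited values were whole numbers for each gene in each library and were taken as raw read counts. The submitters' processing notes name the build hg19 and the tools STAR, featureCounts, FastQC and DESeq2, without versions. The annotation, the strand setting and the treatment of multi-mapping reads were not given in the sources available. Only RNA with an integrity number above 7.0 was used, in directional libraries of polyadenylated RNA, per the labels' protocols. Of 60609 rows, 1 incomplete row and 44 pseudoautosomal copies on the Y chromosome, all without counts, were left out. Gene types, exon lengths and chromosomes came from GENCODE release 29 (GRCh38), matched by identifier, so its coordinates were not used.

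Genes were filtered with filterByExpr, scaled by TMM and compared with edgeR 4.0.16 (quasi-likelihood F test, robust, limma 3.58.1, R 4.3.3). Benjamini-Hochberg adjustment ran over the 16884 tested genes. Fold changes are log2 of ATOH8 knockdown over control, and SEs were derived from the F statistic. The fit was tested on simulated data. Alternatives were DESeq2 size factors, the DESeq2 1.42.0 Wald test, other filters, a replicate block, omission of each library and, chosen after seeing the data, transcript length for levels.

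The members and gene lists were chosen with earlier results of these data known. Members past the threshold with an absolute log2 fold change of at least 0.5, members with a mean of at least 50 CPM and all TIMPs are given with values, and the other members in groups. From each list up to 4 higher and 4 lower genes with the smallest adjusted p are named, except for an item that is not reported here. RECK, and values of members outside this rule (such as MMP1, MMP3, MMP11 and ADAM22), were added after their values were seen. A search of protein sequences planned for the members was not run. Low counts limit the precision of the members under about 1 CPM.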

Additional observations from a re-analysis of the deposited data

Results flagged for a closer look

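In 3 of the 88 groups of 4 libraries examined (44 tested members in both groups), 1 library stood apart from the other 3 by Dixon's ratio, and chance gives about 1 in 20. ADAM11 was at 1.03 CPM in ATOH8 knockdown replicate 4, below the 1.46 to 1.49 CPM of the other 3 libraries of that group. ADAMTS1 was at 363 CPM in control replicate 4, below 383, 383 and 385 CPM in the other control libraries, and remained called higher in ATOH8 knockdown in all 13 alternative fits. MMP24 was at 110.8 CPM in control replicate 1, above the other 3 control libraries (102 to 104 CPM), and remained called lower in all 13.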

How the results depend on the processing

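Of the 33 called members, 30 kept their direction and call in every alternative fit that tested them, and none reversed. The calls lost were those of ADAM10, ADAM12 and ADAM22, given above. With single libraries omitted, 17 to 18 members were higher and 13 to 15 lower. Under the other settings 17 to 22 were higher and 13 to 15 lower. The number of members at least 2-fold higher, 4 as reported, was 7 by the DESeq2 Wald test and 7 without a filter on low counts, and 1 with at least 1 CPM required in 4 libraries, which left out 5 of the 44. It was 4 in each omission of 1 library. ATOH8 ran from -1.34 to -1.20 (log2) over these omissions. No scaling moved the median of all genes by more than 0.006 on the log2 scale. Replicate numbers did not pair the libraries: deviations of same-numbered libraries from their group means correlated at 0.0014 to 0.057. With the replicate number as a block, 19 members were higher and 14 lower, and 4336 genes were higher and 4466 lower over all genes (4253 and 4372 without it). MMP11 gained a call under the block (log2 -0.59, edgeR adjusted p = 0.0382) and ADAM22 lost one (log2 -0.29, edgeR adjusted p = 0.085). DESeq2 also lost ADAM22 (adjusted p = 0.146). Members around or under 1 CPM, among them ADAMTS2, MMP17 and ADAMTS18, rest on few counts.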

Other observations

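Some metalloproteases of the metzincin clan that the 5 prefixes do not cover were also called. Of 8 listed genes only 4 were tested, 2 were higher and 1 lower, where 25.2% of all genes tested were higher and 25.9% lower. TLL2, a tolloid-like astacin protease, had 108 ± 1.74 CPM in ATOH8 knockdown and 57.3 ± 2.25 CPM in control libraries (log2 0.91, SE 0.036, edgeR adjusted p = 2.71e-18). BMP1, the procollagen C-proteinase, had 213 ± 7.77 CPM in ATOH8 knockdown and 171 ± 4.11 CPM in control libraries (log2 0.32, SE 0.033, edgeR adjusted p = 2.89e-09). PAPPA, which cleaves insulin-like growth factor binding proteins, had 122 ± 3.98 CPM in ATOH8 knockdown and 196 ± 11.3 CPM in control libraries (log2 -0.69, SE 0.038, edgeR adjusted p = 7.61e-15). TLL1 was not called (log2 -0.076, SE 0.078, edgeR adjusted p = 0.434).

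Of the 26 rows of these families that are pseudogenes or noncoding RNAs, MMP25-AS1 had the most counts, 90, 88, 89 and 89 in ATOH8 knockdown libraries and 107, 97, 88 and 93 in control libraries. MMP25 itself had 10, 7, 5 and 7 counts in ATOH8 knockdown libraries and 5, 5, 6 and 5 in control libraries.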
